A study of Homo sapiens with 6 samples.

Results

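The genes described here are 40 regulators of mitosis and of the G2/M transition: CDK1 with its cyclins and regulators, mitotic kinases, spindle checkpoint and anaphase proteins, chromosome structure proteins, spindle assembly factors and cytokinesis proteins. Kinesins and kinetochore proteins were left out. The genes were taken as a fixed list of symbols, and each was represented by the brightest, over the 6 arrays, of the probe sets annotated with that symbol alone. All 40 were found among the 33616 symbols of the table. All 40 also passed the filter on dim genes, which kept the 21070 genes whose mean over the 6 arrays reached 3.77, the median over probe sets. Their means over the arrays lay between 6.03 and 17.67 on the log2 scale.

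The arrays measured total RNA of LP-1, an established human multiple myeloma line, that is, a line of malignant plasma cells. S.A. (short-term acidification) cells grew in acidic medium (extracellular pH, pHe, 6.8) and are labelled 2 weeks. L.A. (long-term acidification) cells grew at the same pHe of 6.8 and are labelled 9 months, and Ctrl cells grew at pHe 7.4 and are also labelled 9 months. Each group had 2 arrays, named as biological replicates. Nothing says that these were separate cultures, so p-values measure the spread between these arrays, which may be technical. By its labels no group carried a drug or a genetic change. Descriptions give L.A. cells 8 to 10 weeks and the design 8 to 10 months, and S.A. cells 2 to 3 and 2 to 4 weeks. S.A. cells thus differed from Ctrl cells in time label as well as in pHe, and these cannot be told apart. Of 10 plasma cell markers 9 passed the filter, with JCHAIN near the top of the scale (19.86 in S.A., 19.93 in L.A. and 19.92 in Ctrl), while others differed between groups. SLAMF7 was at 16.77 in S.A., 7.44 in L.A. and 14.59 in Ctrl, TNFRSF17 at 16.51 in S.A., 13.82 in L.A. and 14.22 in Ctrl, CD38 at 17.45 in S.A., 19.09 in L.A. and 17.44 in Ctrl, and PRDM1 at 17.14 in S.A., 16.78 in L.A. and 16.54 in Ctrl. SDC1 was at 11.27 in S.A., 11.06 in L.A. and 11.80 in Ctrl. The limma test described below called SDC1, IRF4, XBP1, MZB1 and JCHAIN in no comparison. TENT5C, at 3.87 in S.A., 3.65 in L.A. and 3.37 in Ctrl, was below the filter.

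Entry into mitosis is driven by CDK1 bound to cyclin A or B. WEE1 and MYT1 kinases hold this complex off, CDC25 phosphatases switch it on, and Aurora and Polo-like kinases carry the signal to centrosomes, chromosomes and spindle. Exit needs the anaphase-promoting complex, a ubiquitin ligase that marks cyclin B and securin for destruction once the spindle checkpoint is satisfied. Most of these genes are transcribed late in the cell cycle, through the MuvB complex with B-MYB and through FOXM1. In a bulk sample, fewer cells in G2 and M and less RNA per cell cannot be told apart.

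In S.A. cells nearly the whole set was lower than in Ctrl. In L.A. cells CEP55 alone was called lower and ANLN alone higher than in Ctrl in the main fit. The ANLN call was lost with replicate number as a block and with the mean of its probe sets, and the CEP55 call was kept in both. Both L.A. arrays lay above both Ctrl arrays in 20 of 40 genes (22.3% of all genes). In S.A. against Ctrl, 38 of 40 genes fell in the limma test over all genes (moderated test, Benjamini-Hochberg adjusted p under 0.05), where 8.55% of all genes tested fell. The number that rose was 0 by limma (0 at an unadjusted p under 0.05), where 6.23% of all genes rose, and 2.9% with replicate number as a block. The median difference of the 40 genes was -1.39 on the log2 scale, against -0.04 over all genes tested. With the block, 27 of 40 fell, where 3.49% of all genes did. In all 40 genes both S.A. arrays lay below both Ctrl arrays, as in 32.3% of all genes. The S.A. mean was above the Ctrl mean in none of the 40, and in 45.6% of all genes.

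In L.A. against S.A., 37 of 40 rose (8.7% of all genes tested), 35 with the block (4.85%), with a median of 1.62, against 0.01 over all genes. By limma 0 fell (0 at an unadjusted p under 0.05), where 7.24% of all genes fell and 3.8% with the block. Both L.A. arrays lay above both S.A. arrays in 39 of 40 (MAD2L1 excepted), as in 30.1% of all genes, and the mean was higher in all 40, against 51.4% of all genes. In L.A. against Ctrl, 1 gene fell (1.59% of all genes, 0.555% with the block) and 1 rose (1.61%, 0.769% with the block), with a median of 0.23, against -0.03 over all genes. With the block, 1 of the 40 fell and 0 rose. At an unadjusted p under 0.05, 12 of the 40 were higher and 2 lower in L.A. than in Ctrl, against 1906 and 2318 of the 21070 genes. The comparisons share arrays in pairs (S.A. minus Ctrl and L.A. minus S.A. the S.A. arrays, S.A. minus Ctrl and L.A. minus Ctrl the Ctrl arrays), so they are given side by side and not as support for each other.

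**Figure D1:**
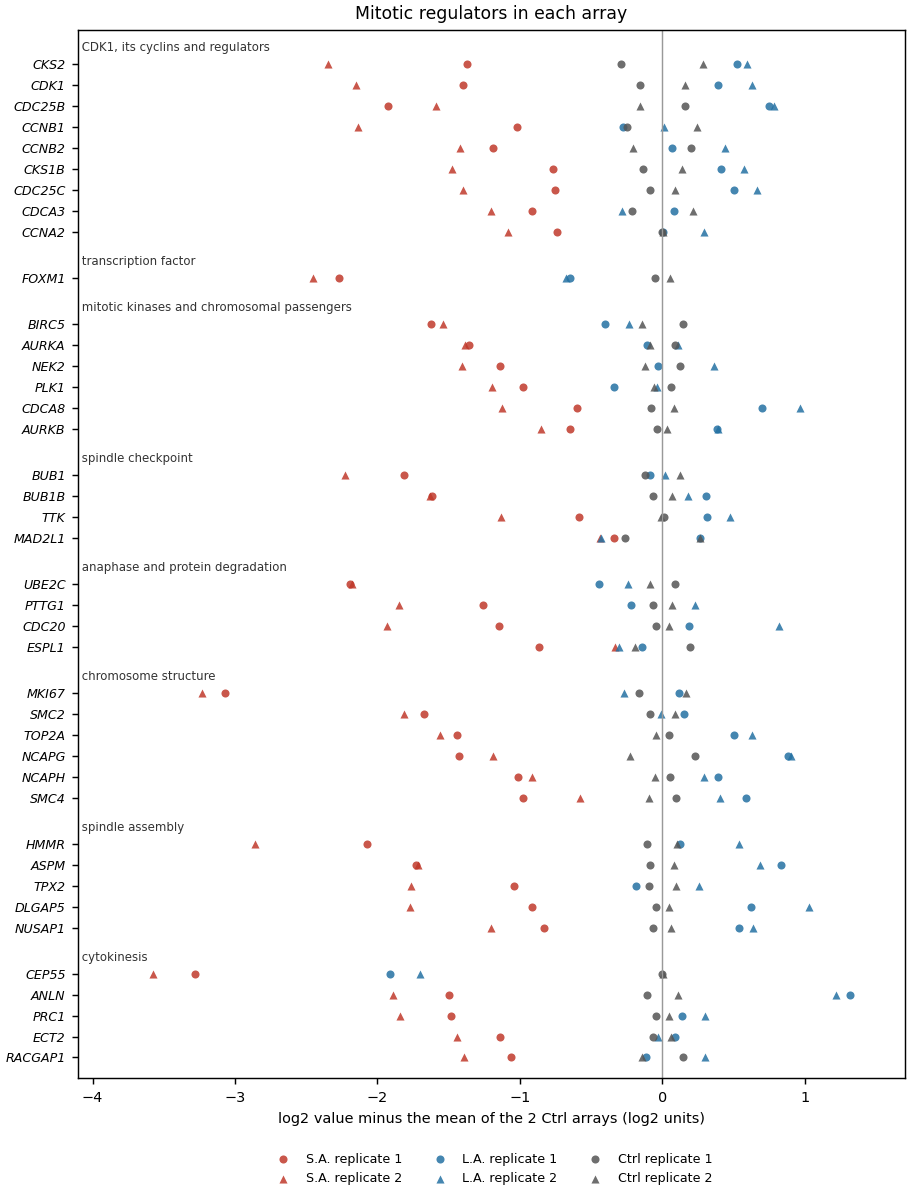
Log2 value of each gene in each of the 6 arrays minus the mean of its 2 Ctrl arrays (x axis, log2 units), with genes in rows grouped by role; colours mark S.A., L.A. and Ctrl, circles replicate 1 and triangles replicate 2. The S.A. arrays lie left of both Ctrl arrays in all 40 rows, from -3.57 to -0.33, and the L.A. points of CEP55 lie far left of 0 and those of ANLN far right.

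Promoters are shown for 5 genes, because late cell cycle genes are known to share promoter elements: CEP55 and MKI67, the largest differences in S.A., ANLN, the 1 gene higher in L.A. than in Ctrl by the test, CCNB2 as a cyclin, and MAD2L1, which was not called in any comparison. The windows are RefSeq's (GRCh38.p14), 250 bases before to 50 after the start, on the gene's own strand: chr10:93496362-93496661 (+ strand), chr10:128126374-128126673 (- strand), chr7:36389612-36389911 (+ strand), chr15:59104896-59105195 (+ strand) and chr4:120066799-120067098 (- strand). Capitals mark matches, on either strand, to 3 motifs: the CHR (cell cycle genes homology region, searched as TTTGAA or TTCGAA), the CCAAT box that NF-Y binds (CCAAT), and an E2F motif (TTCCCGC or TTGGCGC). In MKI67 a CHR match overlaps a CCAAT box.
CEP55: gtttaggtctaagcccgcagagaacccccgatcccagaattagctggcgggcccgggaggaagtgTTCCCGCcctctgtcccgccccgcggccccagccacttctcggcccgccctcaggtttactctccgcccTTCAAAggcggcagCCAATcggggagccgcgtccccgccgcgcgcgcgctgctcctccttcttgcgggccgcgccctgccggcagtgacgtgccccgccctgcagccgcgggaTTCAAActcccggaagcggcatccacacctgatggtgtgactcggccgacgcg
MKI67: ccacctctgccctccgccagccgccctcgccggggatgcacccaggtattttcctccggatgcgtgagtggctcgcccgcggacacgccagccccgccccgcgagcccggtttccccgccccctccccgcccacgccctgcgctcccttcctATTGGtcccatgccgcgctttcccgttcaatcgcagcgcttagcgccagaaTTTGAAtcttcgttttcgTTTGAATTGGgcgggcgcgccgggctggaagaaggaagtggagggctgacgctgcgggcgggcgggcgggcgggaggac
ANLN: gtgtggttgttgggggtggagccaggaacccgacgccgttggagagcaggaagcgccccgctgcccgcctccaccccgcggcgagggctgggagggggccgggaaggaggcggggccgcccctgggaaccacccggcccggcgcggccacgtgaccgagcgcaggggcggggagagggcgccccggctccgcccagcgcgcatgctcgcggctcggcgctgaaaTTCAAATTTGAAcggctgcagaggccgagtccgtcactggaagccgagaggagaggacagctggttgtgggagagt
CCNB2: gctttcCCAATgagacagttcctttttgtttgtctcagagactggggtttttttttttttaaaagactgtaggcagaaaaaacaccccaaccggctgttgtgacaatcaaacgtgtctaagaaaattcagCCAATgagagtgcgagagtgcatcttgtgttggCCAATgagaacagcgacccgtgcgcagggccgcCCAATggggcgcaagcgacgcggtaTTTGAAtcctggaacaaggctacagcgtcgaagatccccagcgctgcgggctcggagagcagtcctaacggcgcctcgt
MAD2L1: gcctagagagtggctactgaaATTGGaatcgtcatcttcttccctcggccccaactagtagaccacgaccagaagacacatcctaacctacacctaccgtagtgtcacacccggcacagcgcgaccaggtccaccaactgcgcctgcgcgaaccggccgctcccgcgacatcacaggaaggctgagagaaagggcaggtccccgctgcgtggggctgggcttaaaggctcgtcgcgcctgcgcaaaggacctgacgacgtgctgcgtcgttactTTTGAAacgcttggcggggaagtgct

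In CCNB2, CCAAT boxes began at -244, -120, -87 and -54 from the start and a CHR at -29. The CHR matches of ANLN began at -26 and -20, those of MKI67 at -47 and -29 and those of CEP55 at -116 and -3. That of MAD2L1 lay after the start, at 25. Of the 40 genes, 33 had a window in the RefSeq table. A CHR match was in 25 of these 33 windows (75.8%), against 12.3% of the windows of 10154 protein-coding genes that passed the filter and 16.6% of those of all 27305 genes. It began between -50 and 50 in 20 of them (60.6%), against 3.57% and 5.05% in the same sets. A CCAAT box was in 26 (78.8%), against 37.2% and 35.7%, and 16 held at least 2 (48.5%), against 13.6% and 11.3%. Both elements were in 20 (60.6%), against 5.27% and 6.58%. An E2F match was in 8 (24.2%), against 14.1% and 9.33%. Where a gene had several windows the first listed was read, and with any window counted 27 of 33 genes held a CHR (81.8%), against 16.6% of the protein-coding genes. Pairs of CCAAT boxes beginning 31 to 34 bases apart, a distance chosen after the matches were seen, were in 5 windows (15.2%), against 1.84% and 1.36%. No CHR match was in the window read of CCNA2, CCNB1, CDC25B, CDC25C, NEK2, AURKB, PTTG1 and NCAPH. These are matches of letters in a reference sequence and show no binding in these cells.

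**Figure D2:**
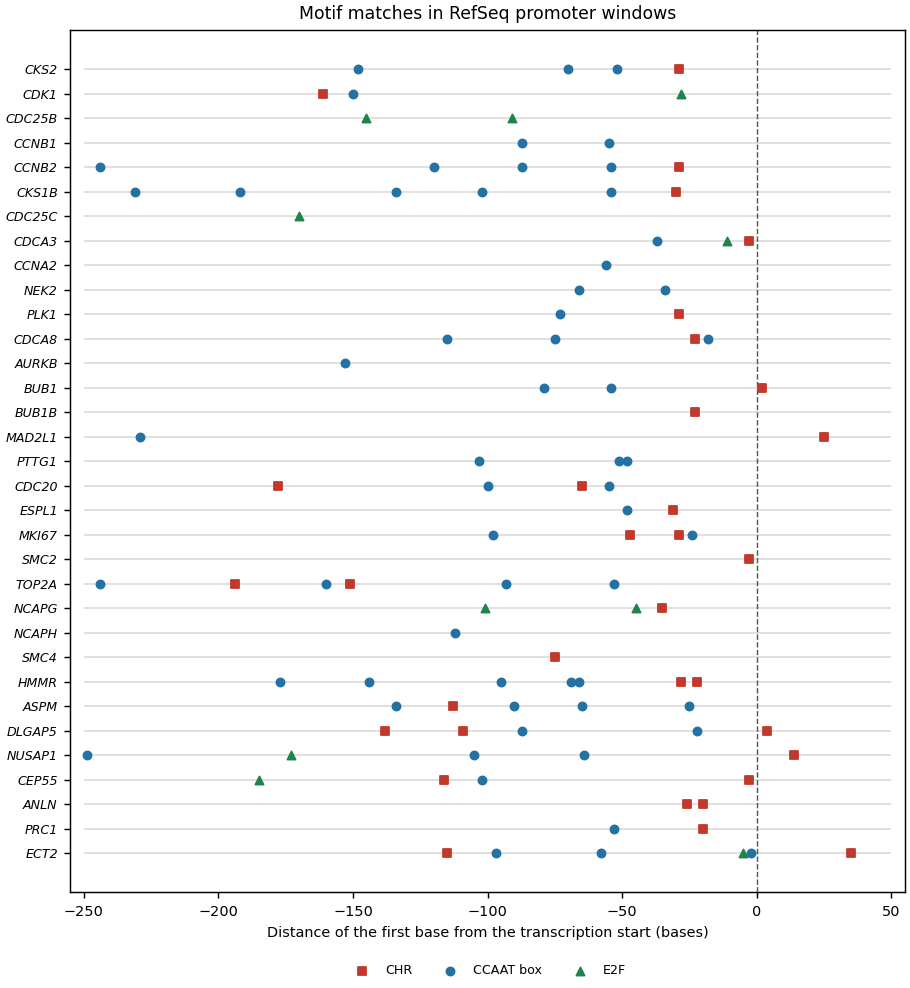
Position of CHR (squares), CCAAT box (circles) and E2F (triangles) matches in the RefSeq promoter windows of 33 genes, 1 per row; the x axis is the distance in bases of the match's first base from the transcription start (dashed line). Of 34 CHR matches 23 lie between -50 and 50, and all 59 CCAAT boxes lie before the start.

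All 9 genes of the CDK1 group fell in S.A. against Ctrl, 4 of them also with the block, with a median of -1.31. CDK1, the kinase that drives entry into mitosis, was at 10.54 and 9.78 in S.A., 12.33 and 12.56 in L.A. and 11.78 and 12.09 in Ctrl (log2 values, replicates 1 and 2). Both S.A. arrays lay below all others, and S.A. replicate 2 was the lower of them. CDK1 was 3.42-fold lower in S.A. than in Ctrl (log2 difference -1.77 ± 0.28 SE, limma adjusted p = 0.0132) and rose by 2.28 ± 0.28 in L.A. against S.A. (adjusted p = 0.00493). L.A. minus Ctrl was 0.51 ± 0.28 and not called (adjusted p = 0.367).

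The B-type cyclins differed in how close their S.A. arrays were to each other. CCNB1 was at 10.27 and 9.16 in S.A., 11.02 and 11.31 in L.A. and 11.05 and 11.54 in Ctrl. Its S.A. arrays were 1.11 apart, the widest gap of the 40 genes within any group, with replicate 2 lower. CCNB1 fell by 1.58 ± 0.38 in S.A. against Ctrl (limma adjusted p = 0.0439, and 0.0508 with the block), and it was the 1 gene of this group not called in L.A. against S.A., at 1.45 ± 0.38 (adjusted p = 0.0533). CCNB2 was at 9.82 and 9.59 in S.A., 11.08 and 11.45 in L.A. and 11.21 and 10.81 in Ctrl, so that L.A. and Ctrl overlapped. It fell by 1.31 ± 0.21 in S.A. (adjusted p = 0.0148, and 0.0295 with the block) and rose by 1.56 ± 0.21 in L.A. against S.A. (adjusted p = 0.00723). CCNA2, the cyclin of S phase and early mitosis, had the smallest S.A. difference of the group, -0.91 ± 0.18 (adjusted p = 0.0258, and 0.0763 with the block).

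CKS1B and CKS2 encode small, closely related subunits of cyclin-dependent kinase complexes. CKS2 was at 11.87 and 10.90 in S.A., 13.77 and 13.84 in L.A. and 12.96 and 13.53 in Ctrl, and CKS1B at 13.51 and 12.80 in S.A., 14.69 and 14.85 in L.A. and 14.14 and 14.41 in Ctrl. In both genes the S.A. arrays were the lowest, the L.A. arrays the highest, and no groups overlapped. CKS2 fell by 1.86 ± 0.35 in S.A. (limma adjusted p = 0.0216) and CKS1B by 1.12 ± 0.26 (adjusted p = 0.0372, and 0.0648 with the block). Against S.A., they rose in L.A. by 2.42 ± 0.35 for CKS2 and 1.62 ± 0.26 for CKS1B.

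CDC25B and CDC25C are phosphatases that remove the inhibiting phosphates from CDK1. CDC25B was at 9.35 and 9.68 in S.A., 12.02 and 12.06 in L.A. and 11.43 and 11.11 in Ctrl, and CDC25C at 7.44 and 6.80 in S.A., 8.71 and 8.87 in L.A. and 8.11 and 8.29 in Ctrl. Both were lowest in S.A. and highest in L.A., without overlap. CDC25B fell by 1.76 ± 0.18 in S.A. (limma adjusted p = 0.00484) and rose by 2.52 ± 0.18 in L.A. against S.A. (adjusted p = 0.00117). Its L.A. minus Ctrl of 0.77 ± 0.18 was not called (adjusted p = 0.0904). CDC25C fell by 1.08 ± 0.23 in S.A. (adjusted p = 0.0325, and 0.0632 with the block). CDCA3, known as a trigger of mitotic entry, fell by 1.06 ± 0.22 in S.A., a call that the block did not keep.

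The transcription factor FOXM1, which activates many late cell cycle genes, was among the most lowered. It was at 8.91 and 8.73 in S.A., 10.53 and 10.51 in L.A. and 11.13 and 11.23 in Ctrl, with 3 levels that did not overlap. FOXM1 fell by 2.36 ± 0.14 in S.A. against Ctrl (limma adjusted p = 0.00162), 5.13-fold, and rose by 1.70 ± 0.14 in L.A. against S.A. (adjusted p = 0.00158). L.A. minus Ctrl was -0.66 ± 0.14 and was not called (adjusted p = 0.0677, and 0.296 with the block). The genes around FOXM1 on chromosome 12 were lower too: the median S.A. minus Ctrl of its 20 nearest protein-coding genes was -0.73, and 0 of them were as low as FOXM1. In L.A. minus Ctrl the median of the same 20 genes was -0.63, and 9 of them were as low as FOXM1.

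**Figure D3:**
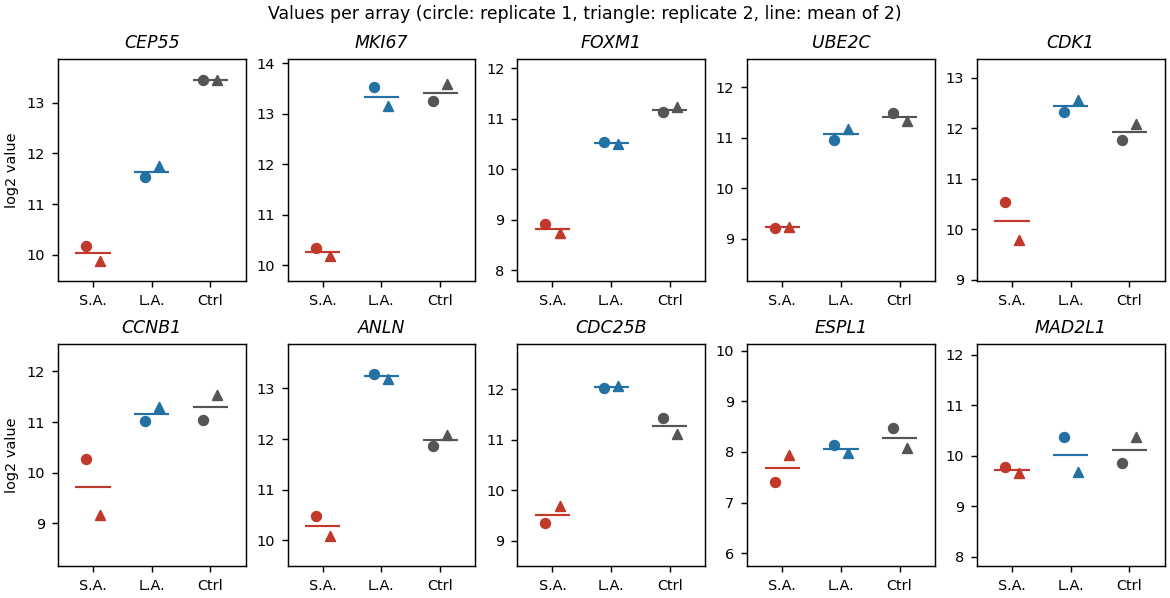
Log2 value (y axis, each panel spanning the same number of log2 units) of 10 genes in the S.A., L.A. and Ctrl arrays; circles are replicate 1, triangles replicate 2 and lines the mean of 2 arrays. CEP55 and FOXM1 have 3 separate levels with L.A. below Ctrl, ANLN and CDC25B have L.A. above Ctrl, and in MAD2L1 the L.A. and Ctrl arrays overlap.

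Kinases and chromosomal passenger proteins fell in S.A. in 6 of 6 cases, 4 with the block, with a median of -1.18. AURKA, the centrosomal Aurora kinase, was at 13.27 and 13.24 in S.A., 14.52 and 14.74 in L.A. and 14.72 and 14.54 in Ctrl. AURKB, the Aurora kinase of the chromosomal passenger complex, was at 8.00 and 7.79 in S.A., 9.03 and 9.04 in L.A. and 8.61 and 8.68 in Ctrl. The L.A. and Ctrl arrays of AURKA overlapped, while both L.A. arrays of AURKB lay above both Ctrl arrays. AURKA fell by 1.37 ± 0.15 in S.A. (limma adjusted p = 0.00539) and AURKB by 0.75 ± 0.14 (adjusted p = 0.022, and 0.101 with the block). L.A. minus Ctrl of AURKB was 0.39 ± 0.14 and not called (adjusted p = 0.204), and that of AURKA was not called either (adjusted p = 0.999).

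BIRC5, the passenger protein survivin, fell by 1.58 ± 0.16 in S.A. (limma adjusted p = 0.00453), also with the block. CDCA8, the passenger protein borealin, was at 9.52 and 8.99 in S.A., 10.82 and 11.09 in L.A. and 10.04 and 10.20 in Ctrl, lowest in S.A. and highest in L.A. It fell by 0.86 ± 0.22 in S.A. (adjusted p = 0.0487, and 0.107 with the block), and its L.A. minus Ctrl of 0.83 ± 0.22 was not called (adjusted p = 0.107). PLK1, the Polo-like kinase of mitotic entry, fell by 1.09 ± 0.17 in S.A. and rose by 0.90 ± 0.17 in L.A. against S.A., the second lost with the block (adjusted p = 0.065). NEK2, a centrosome-splitting kinase, fell by 1.27 ± 0.20 in S.A. and rose by 1.44 ± 0.20 in L.A. against S.A.

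Of the 4 spindle checkpoint genes, 3 fell in S.A., 2 with the block. BUB1, a checkpoint kinase, was at 14.93 and 14.51 in S.A., 16.65 and 16.76 in L.A. and 16.62 and 16.86 in Ctrl, and BUB1B, the related BubR1, was at 13.49 and 13.47 in S.A., 15.41 and 15.29 in L.A. and 15.04 and 15.17 in Ctrl. In both genes the S.A. arrays stood below the other 4. BUB1 fell by 2.02 ± 0.19 (limma adjusted p = 0.00368) and BUB1B by 1.62 ± 0.14 (adjusted p = 0.00295). TTK, the checkpoint kinase MPS1, fell by 0.86 ± 0.21 (adjusted p = 0.044, and 0.096 with the block).

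MAD2L1, the checkpoint protein that holds CDC20 inactive, was 1 of the 2 genes not called anywhere. Its values were 9.76 and 9.66 in S.A., 10.37 and 9.67 in L.A. and 9.84 and 10.37 in Ctrl, so that the L.A. arrays spanned nearly the whole range. S.A. minus Ctrl was -0.39 ± 0.28 (limma adjusted p = 0.409) and L.A. minus S.A. 0.30 ± 0.28 (adjusted p = 0.526). Replicate 2 minus replicate 1 was -0.70 in L.A. and 0.52 in Ctrl. ESPL1, the protease separase that cuts cohesin at anaphase, was the other, at 7.41 and 7.95 in S.A., 8.14 and 7.98 in L.A. and 8.48 and 8.08 in Ctrl. Both its S.A. arrays were below both Ctrl arrays, and S.A. minus Ctrl was -0.60 ± 0.23 (adjusted p = 0.145).

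The other 3 anaphase genes fell in S.A. and were called with the block too. UBE2C, the ubiquitin-conjugating enzyme of the anaphase-promoting complex, was at 9.22 and 9.23 in S.A., 10.96 and 11.17 in L.A. and 11.50 and 11.32 in Ctrl. The S.A. replicates were nearly equal, and both L.A. arrays lay below both Ctrl arrays. UBE2C fell by 2.18 ± 0.15 in S.A. (limma adjusted p = 0.00209) and L.A. minus Ctrl was -0.34 ± 0.15 (adjusted p = 0.272). CDC20, the complex's activator, fell by 1.54 ± 0.32 and PTTG1, the separase inhibitor securin, by 1.55 ± 0.25. Against S.A., CDC20 rose in L.A. by 2.04 ± 0.32 and PTTG1 by 1.56 ± 0.25.

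The 6 chromosome structure genes fell in S.A., 5 with the block, with a median of -1.40. MKI67, which encodes the proliferation marker Ki-67 that coats mitotic chromosomes, was at 10.35 and 10.19 in S.A., 13.54 and 13.15 in L.A. and 13.25 and 13.58 in Ctrl. L.A. and Ctrl overlapped. MKI67 was 8.87-fold lower in S.A. than in Ctrl (limma adjusted p = 0.00171), and L.A. minus Ctrl was -0.07 ± 0.20 (adjusted p = 0.886). TOP2A, which untangles replicated DNA, was at 12.18 and 12.06 in S.A., 14.12 and 14.25 in L.A. and 13.67 and 13.58 in Ctrl, with both L.A. arrays above Ctrl. TOP2A fell by 1.50 ± 0.14 in S.A. (adjusted p = 0.00355), and its L.A. minus Ctrl of 0.56 ± 0.14 was not called (adjusted p = 0.0938).

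Condensin, the ring complex that compacts mitotic chromosomes, was lower in S.A. in each subunit measured. SMC2 was at 8.16 and 8.01 in S.A., 9.98 and 9.82 in L.A. and 9.74 and 9.92 in Ctrl, and fell by 1.74 ± 0.15 in S.A. (limma adjusted p = 0.00315). Its L.A. and Ctrl arrays overlapped. On chromosome 9, the 20 neighbours of SMC2 had a median of -0.50, and 4 of them were as low as SMC2. NCAPG fell by 1.31 ± 0.20, NCAPH by 0.96 ± 0.14 and SMC4 by 0.78 ± 0.19, the last lost with the block (adjusted p = 0.12) and in several other settings, such as quantile normalization (-0.60, adjusted p = 0.124). Outside the 40 genes, 4 of 4 further condensin subunits fell, 3 with the block, with differences of -1.46 ± 0.14 for NCAPG2, -1.45 ± 0.20 for NCAPD2, -1.15 ± 0.17 for NCAPH2 and -0.88 ± 0.13 for NCAPD3. All 4 rose in L.A. against S.A., also with the block, by 1.03 (NCAPD3) to 1.53 (NCAPG2).

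All 5 spindle assembly genes fell in S.A., 3 with the block. HMMR, a microtubule and hyaluronan binding protein of the spindle, was at 8.49 and 7.70 in S.A., 10.69 and 11.10 in L.A. and 10.45 and 10.66 in Ctrl. The S.A. arrays were apart by 0.79 and still below the other 4. HMMR was 5.53-fold lower in S.A. than in Ctrl (limma adjusted p = 0.00637). ASPM, a spindle pole protein, was at 9.64 and 9.65 in S.A., 12.20 and 12.05 in L.A. and 11.28 and 11.45 in Ctrl, with no overlap between groups. ASPM fell by 1.72 ± 0.14 in S.A. (adjusted p = 0.00283), and its L.A. minus Ctrl of 0.76 ± 0.14 missed the threshold (adjusted p = 0.0514, and 0.23 with the block). TPX2, the activator of AURKA, fell by 1.40 ± 0.28 in S.A., the spindle protein DLGAP5 by 1.34 ± 0.30 and NUSAP1, which bundles spindle microtubules, fell by 1.01 ± 0.17, the last 2 lost with the block. Against S.A., the 5 genes rose in L.A. by 1.44 (TPX2) to 2.80 (HMMR).

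**Figure D4:**
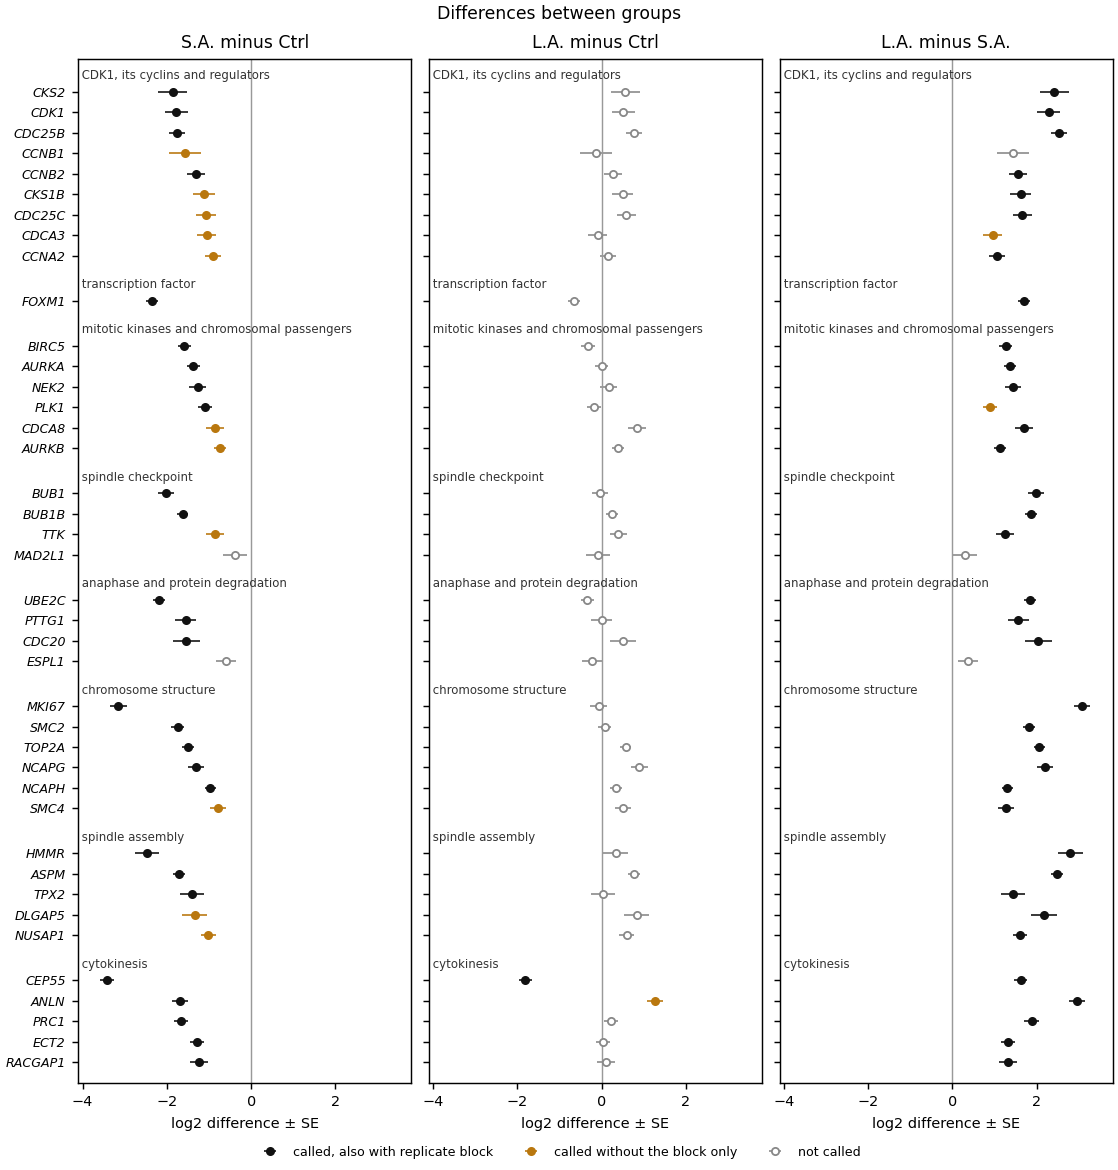
Log2 differences (x axis, ± SE from limma) of the 40 genes in S.A. minus Ctrl, L.A. minus Ctrl and L.A. minus S.A., in rows grouped by role; filled black points were called also with the replicate block, filled orange points only without it, and open points were not called. S.A. minus Ctrl is below 0 and L.A. minus S.A. above 0 in all 40 rows, and in L.A. minus Ctrl only CEP55 and ANLN are filled.

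Both genes called in L.A. against Ctrl belong to the cytokinesis group, of which all 5 fell in S.A., 5 with the block. CEP55, which recruits the abscission machinery to the midbody, was at 10.17 and 9.88 in S.A., 11.54 and 11.75 in L.A. and 13.45 and 13.46 in Ctrl. The 3 groups formed 3 levels without overlap. CEP55 fell by 3.43 ± 0.16 in S.A. against Ctrl (limma adjusted p = 0.00111), 10.8-fold, the largest difference of the 40 genes. In L.A. it was 3.51-fold below Ctrl (-1.81 ± 0.16, limma adjusted p = 0.00685, and 0.0134 with the block). It was above S.A. by 1.62 ± 0.16 (adjusted p = 0.00291), which is 47.2% of the log2 distance between the S.A. and Ctrl means. Its 20 neighbours on chromosome 10 had a median of 0.02 in L.A. minus Ctrl, and 0 were as low.

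ANLN, the actin-binding protein anillin of the cleavage furrow, was at 10.48 and 10.09 in S.A., 13.29 and 13.19 in L.A. and 11.87 and 12.08 in Ctrl. It was lowest in S.A. and highest in L.A. ANLN fell by 1.69 ± 0.18 in S.A. against Ctrl (limma adjusted p = 0.0052) and rose by 1.27 ± 0.18 in L.A. against Ctrl (adjusted p = 0.0261), 2.40-fold. The block did not keep the second call (adjusted p = 0.0632), and leaving out any 1 of the 4 L.A. and Ctrl arrays ended it as well, giving 1.16 to 1.38 with adjusted p from 0.0674 to 0.132. ANLN was the 1 gene of the 40 with a second single-symbol probe set. That set was dim, at 4.83 and 4.92 in S.A., 5.08 and 4.82 in L.A. and 4.71 and 4.96 in Ctrl, and its groups overlapped.

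PRC1, which bundles the microtubules of the central spindle, fell by 1.66 ± 0.17 in S.A., ECT2, the exchange factor that activates RhoA at the furrow, by 1.29 ± 0.16, and RACGAP1, a centralspindlin subunit that binds ECT2, by 1.23 ± 0.21. In L.A. they rose against S.A. by 1.88 for PRC1, 1.32 for ECT2 and 1.32 for RACGAP1. Their L.A. minus Ctrl was 0.22 ± 0.17 for PRC1, 0.03 ± 0.16 for ECT2 and 0.09 ± 0.21 for RACGAP1, none called.

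L.A. values lay above Ctrl more often than below. The L.A. mean was above the Ctrl mean in 28 of 40 genes, where it was above in 46.2% of all genes tested. Both L.A. arrays lay above both Ctrl arrays in 20 of 40 (22.3% of all genes) and below them in 4 (28.1%), and they overlapped in the other 16. The 4 were BIRC5, CEP55, FOXM1 and UBE2C. By the median over the 40 genes, the difference from the Ctrl mean was -1.17 and -1.55 in the S.A. arrays, 0.14 and 0.30 in the L.A. arrays and -0.05 and 0.05 in the Ctrl arrays (replicates 1 and 2).

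The S.A. arrays also differed from each other in these genes. S.A. replicate 2 was lower than replicate 1 in 32 of 40, where it was lower in 56.6% of all genes. The median of replicate 2 minus replicate 1 was -0.29 over the 40 and -0.06 over all genes. The replicates were more than 0.5 apart in 13 of 40 genes in S.A. (17.6% of all genes), 2 in L.A. (12.6%) and 2 in Ctrl (15.2%). After CCNB1 (-1.11) the widest S.A. gaps were those of CKS2 (-0.97), DLGAP5 (-0.86), HMMR (-0.79), CDC20 (-0.79) and CDK1 (-0.75). Without S.A. replicate 2, 24 of 40 genes fell against Ctrl, and without S.A. replicate 1, 37. Without Ctrl replicate 1 the count was 23, and without Ctrl replicate 2 it was 24. All 40 differences were below 0 in each of these fits.

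To set each gene against its surroundings on the chromosome, it was compared with its 20 nearest protein-coding genes that passed the filter, 10 on each side, the other list genes left out. The medians of the neighbours in S.A. minus Ctrl lay between -0.73 (FOXM1) and 0.50 (TTK), and all 40 genes were below their own. In 23 of the 40, none of the 20 neighbours was as low. These counts were not made for genes outside the 40, so they have no background to be set against. Besides FOXM1, the lowest neighbour medians were those of CKS2 (-0.51), CDCA3 (-0.50), SMC2 (-0.50) and CDK1 (-0.44).

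**Figure D5:**
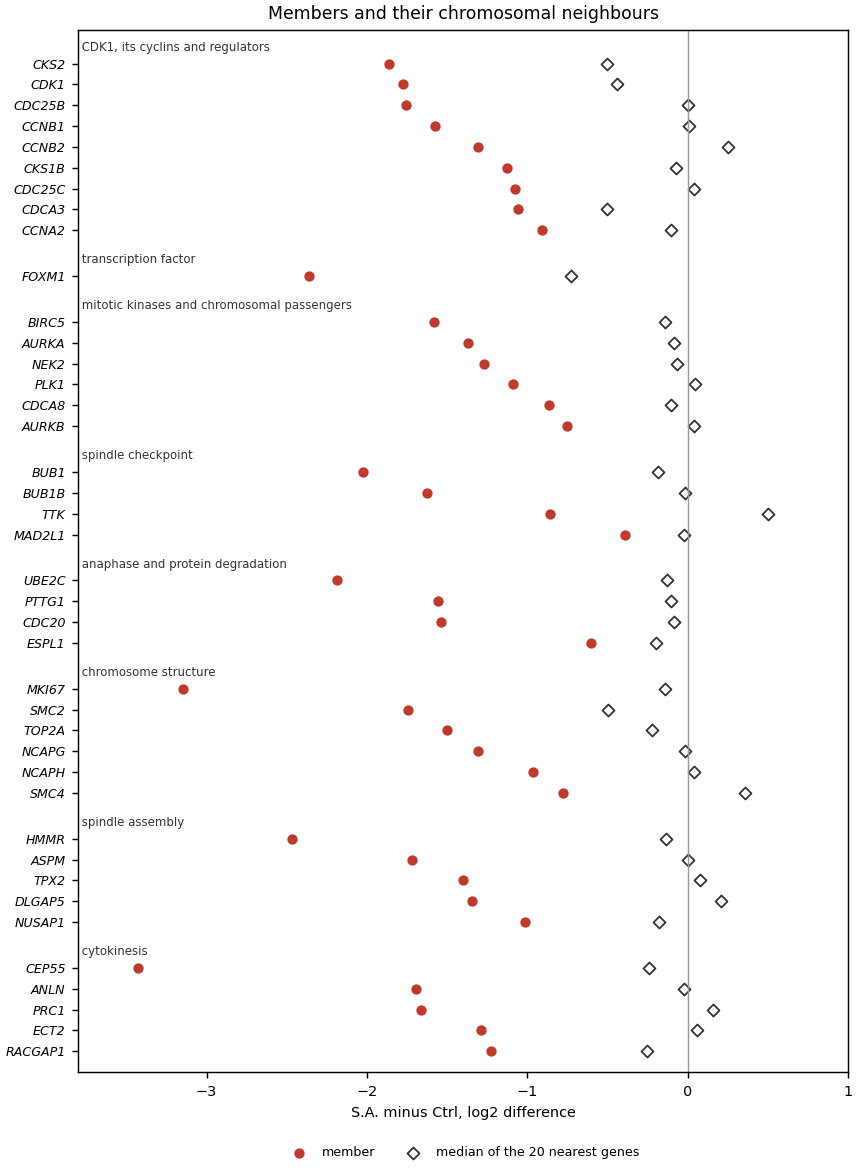
S.A. minus Ctrl (x axis, log2 difference) of each of the 40 genes (filled circles) and the median of its 20 nearest protein-coding genes (open diamonds), in rows grouped by role. Each circle lies left of its diamond, and the diamonds lie between -0.73 and 0.50.

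Other mitotic genes were read in lists, which got no test of their own. Of all genes tested, 8.55% fell and 6.23% rose in S.A. against Ctrl, 3.49% and 2.9% with the block. In L.A. against S.A., 7.24% fell and 8.7% rose, 3.8% and 4.85% with the block. Of the 12210 protein-coding genes that passed the filter, 1460 fell and 920 rose in S.A. (648 and 426 with the block). In L.A. against S.A., 1191 of them fell and 1501 rose (640 and 890 with the block). Small list counts have to be read against these. Of 15 genes of cohesin and its regulators, 6 fell in S.A., 5 with the block, with a median of -0.76, and by limma 0 rose (0 at an unadjusted p under 0.05). CDCA5, sororin, fell by 2.37 ± 0.19 and SGO1, shugoshin, fell by 2.01 ± 0.27, both protectors of cohesion. Against S.A., 7 rose in L.A., 6 with the block, with SGO1 at 2.62 ± 0.27 and the ring subunit SMC3 at 1.92 ± 0.15. By limma 0 of the list were called in L.A. against Ctrl, with 2 lower and 2 higher at an unadjusted p under 0.05.

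Of 18 genes of the anaphase-promoting complex and its regulators, 3 fell in S.A., with a list median of -0.28. They were UBE2S, which extends ubiquitin chains after UBE2C, by 1.96 ± 0.22, ANAPC15 by 1.10 ± 0.24 and ANAPC16 (9.05 in S.A., against 10.06 in Ctrl), and the block kept UBE2S. Against S.A., 5 rose in L.A., led by UBE2S at 1.87 ± 0.22 and ANAPC16 at 1.38 ± 0.19, and 2 fell. With the block 5 rose and 0 fell. Of 15 enzymes and checkpoint kinases around CDK1 that passed the filter, 6 fell in S.A., 3 with the block, with a median of -0.63. CDC25A, a paralog of CDC25B, fell by 1.83 ± 0.22 and the checkpoint kinase CHEK1 by 1.75 ± 0.14. In L.A., 8 rose against S.A., 5 with the block, among them CHEK1 by 1.87 ± 0.14 and CDC25A by 1.78 ± 0.22. PLK2, a Polo-like kinase, was the 1 gene that rose in L.A. against Ctrl, at a dim 4.40 in L.A., against 3.33 in Ctrl, and the block did not keep it.

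Of 15 genes of the MuvB, DREAM and B-MYB complexes, 4 fell in S.A., 1 with the block, with a median of -0.34. MYBL2, which encodes B-MYB, fell by 1.43 ± 0.16 in S.A. and by 1.02 ± 0.16 in L.A., each against Ctrl, the second lost with the block. The others were TFDP2 (-0.91), NFYC (-0.87) and TFDP1 (-0.83), a pair of E2F partners and an NF-Y subunit. L.A. minus S.A. of MYBL2 was 0.41 ± 0.16 and not called. In the same comparison NFYC rose by 1.13 ± 0.14, TFDP1 by 0.72 ± 0.18 and RBBP4, a MuvB subunit, by 0.58 ± 0.15. The block kept NFYC and lost TFDP1 and RBBP4.

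Of 14 genes of the Greatwall kinase and the phosphatases of mitotic exit, 2 fell and 3 rose in S.A. (median -0.07). MASTL, the Greatwall kinase, fell by 1.31 ± 0.15 and PPP2R1A, the PP2A scaffold, by 0.70 ± 0.16. PPP1R2, an inhibitor of protein phosphatase 1, rose by 1.47 ± 0.14, ARPP19, a Greatwall substrate that inhibits PP2A, by 0.84 ± 0.13 and PPP2CB, a PP2A catalytic subunit, by 0.55 ± 0.14. The block kept MASTL and PPP1R2. In L.A. against S.A., 4 rose and 2 fell, with MASTL at 8.20 in L.A., against 6.30 in S.A., and PPP1R2 at -1.08 ± 0.14. With the block 1 rose (MASTL) and 1 fell (PPP1R2).

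Of 16 centrosome and spindle pole genes, 6 fell and 2 rose in S.A., 3 and 1 under the block, and the list median was -0.61. TACC3, a spindle microtubule protein, fell by 2.23 ± 0.24, while NEK7, a kinase of the NIMA family, rose by 2.04 ± 0.16. In L.A. against S.A., 7 rose and 3 fell, 6 and 2 with the block. The largest rises were those of TACC3 at 2.59 ± 0.24 and NUMA1, a spindle pole protein, at 1.76 ± 0.17. NEK6 fell by 1.22 ± 0.17 in L.A. against Ctrl, lost with the block. Of 11 cytokinesis and abscission genes outside the 40 that passed the filter, 5 fell in S.A., 1 with the block: INCENP, the scaffold of the passenger complex, by 1.96 ± 0.20, the myosins MYH10 by 0.92 ± 0.19 and MYH9 by 0.84 ± 0.16, CHMP4B by 0.82 ± 0.13 and RHOA by 0.64 ± 0.14. In L.A. against S.A. INCENP rose by 2.46 ± 0.20, MYH9 by 1.36 ± 0.16, MYH10 by 1.08 ± 0.19 and RHOA by 0.68 ± 0.14, the last lost with the block. Of 6 further checkpoint genes 2 fell in S.A., TRIP13 by 1.04 ± 0.16 and TPR by 0.95 ± 0.16, 1 with the block. In L.A. against S.A. TRIP13 rose, at 12.13 in L.A., against 10.93 in S.A. So did TPR by 1.11 ± 0.16 and MAD2L2 by 0.73 ± 0.18, the last lost with the block.

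Markers of other cell types were read beside these genes. Of 7 T and NK cell, 7 monocyte, 6 erythroid and platelet and 6 stromal and endothelial markers measured, 2, 3, 5 and 4 passed the filter, and 0 were called by limma in any comparison (1 erythroid or platelet and 1 stromal or endothelial gene at an unadjusted p under 0.05 in S.A. minus Ctrl, 1 and 1 in L.A. minus Ctrl, and none in L.A. minus S.A.). The T cell gene CD3D was at 3.04 in S.A., 2.91 in L.A. and 3.00 in Ctrl, and the monocyte gene LYZ at 3.27 in S.A., 2.97 in L.A. and 3.21 in Ctrl, all below the filter. Other genes of these lists passed it. The highest gene means in S.A., L.A. and Ctrl were 5.44, 5.34 and 5.43 for T and NK cells (NKG7). They were 4.59, 4.71 and 4.73 for monocytes and 5.24, 5.09 and 4.95 for erythroid cells and platelets. Of the stromal and endothelial list PECAM1 was bright, at 11.43 in S.A., 10.90 in L.A. and 11.57 in Ctrl. Its replicates were far apart, at 12.01 and 10.84 in S.A. and 10.97 and 12.16 in Ctrl. The stromal gene COL1A1 was at 7.58 in S.A., 7.39 in L.A. and 6.98 in Ctrl. The endothelial genes VWF (4.76 in S.A., 4.88 in L.A. and 4.85 in Ctrl) and CDH5 (3.01, 3.26 and 3.22, below the filter) were dim. Summed log2 values of the T and NK cell list were 24.33 and 24.70 in the S.A. arrays, 25.16 and 25.70 in the L.A. arrays and 24.97 and 24.28 in the Ctrl arrays (replicates 1 and 2).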

How the data were processed

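The authors deposited 1 table of RMA values for 135574 probe sets on 6 arrays, read here as log2 values. RMA and the Transcriptome Analysis Console are named in the submitters' processing notes. The sources used here state no version, log base or genome build for them, and every fold rests on base 2. Of the probe sets, 36176 carried 1 symbol, 1119 several and 98279 none. Symbols were updated by gene ID for 25516 of 25555 probe sets that had an ID.

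Genes were compared with limma 3.58.1 in R 4.3.3, fitting group means over all 6 arrays with empirical Bayes without trend, and p-values were adjusted by Benjamini-Hochberg over 21070 genes. The threshold was an adjusted p under 0.05, and ± gives limma's standard error. The small number of arrays limits the precision.

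Replicate number accounted for 1.18% of the variation within groups, against 33.3% for 1 of 3 equal degrees of freedom. Replicate differences correlated between groups at -0.565 to -0.413 across genes. These values cannot show whether the numbers pair the samples, and the sources used here do not state whether a replicate term was taken out before deposit. If it was, the unblocked fit counts 1 degree of freedom too many, which makes its p-values and errors too small, so counts with the block are given beside it. The fits were tested on simulated data.

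Genes described with their values in each array are the 12 largest called differences in S.A. minus Ctrl, the genes not called there, those called in L.A. minus Ctrl and 5 pairs of related genes. Of the other lists, the 2 largest called differences per comparison are named, or all called where there are 5 or fewer. CDCA8, TOP2A and the other genes named were chosen after their values were seen. Genes and lists were chosen with earlier results of these data known. A longer E2F motif was searched before the 1 used. Alternatives were the block, 2 filters, the variance prior, the mean of probe sets, 2 scalings, fits of 2 groups and leaving out each array.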

Additional observations from a re-analysis of the deposited data

Results flagged for a closer look

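The difference from Ctrl was not the same in S.A. and L.A. cells, by limma in L.A. minus S.A., in both genes also called in L.A. minus Ctrl. S.A. and L.A. were set against the same Ctrl arrays, labelled 9 months, so this contrast is L.A. minus S.A. itself. It was called higher in 37 of the 40 genes, and is not particular to these 2. ANLN differed by 2.96 ± 0.18 (adjusted p = 0.000771), being 3.23-fold lower in S.A. and 2.40-fold higher in L.A. than in Ctrl. CEP55 differed by 1.62 ± 0.16 (adjusted p = 0.00291), being lower than in Ctrl at both times. Groups of 2 arrays are too small for a search for single outlying arrays.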

How the results depend on the processing

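Among the 40 genes, no difference changed sign under any alternative run in a comparison in which its gene was called. In S.A. minus Ctrl the count of the 40 genes that fell, 38, was 32 without a filter on dim genes, 35 with only the 2 groups compared, 37 with arrays centred, 37 with quantile normalization, 27 with the replicate block and 23 to 37 with 1 array left out. The count that rose in L.A. minus S.A., 37, was 35 with the block and 31 to 38 with 1 array left out. In L.A. minus Ctrl the count of rises, 1, was 0 with the replicate block, 0 with the mean of probe sets (ANLN at 0.69), 2 with a trended prior, 2 with arrays centred, 2 with quantile normalization, 3 with a stricter filter and 0 to 1 with 1 array left out. The count of falls there, 1, was 2 with the stricter filter (FOXM1 added). The filters change how many genes are tested. For the other alternatives the cause was not tested.

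Over all genes the replicate block gave 736 lower and 611 higher in S.A. minus Ctrl (1801 and 1312 without it), 117 and 162 in L.A. minus Ctrl (336 and 339) and 801 and 1022 in L.A. minus S.A. (1526 and 1834). With 1 array left out, where a lone array was assumed to vary like the other groups, the ranges were 612 to 1416 lower and 522 to 1070 higher in S.A. minus Ctrl, 81 to 323 and 114 to 351 in L.A. minus Ctrl, and 658 to 1334 and 845 to 1597 in L.A. minus S.A.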
